A study of Rattus norvegicus with 9 samples.

Results

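The 9 genes described here code for the calpain proteases of muscle and their partners (Capn1, Capn2, Capn3, Capns1 and Cast) and for regulators of mitochondrial cell death (Casp9, Bax, Bcl2 and Bcl2l1). They are a list of gene names set up with earlier results of these data known, and were found through the platform's annotation among probe sets that carry 1 symbol. All 9 were measured, by 12 of the 29215 probe sets and as 9 of the 14506 genes of the array. Where a gene had several probe sets, its brightest probe set on average stood for it. RNA came from the tibialis anterior (TIB), a hindlimb muscle, of male Sprague Dawley rats bought at an age of 10 weeks. There was 1 rat per Affymetrix Rat Gene 1.0 ST array. Fed rats had food until sampling, P2 rats had fasted until phase 2, when body protein is spared, and P3 rats had fasted until phase 3, when body protein is mobilized. Water was freely available to every group, and there were 3 rats per group, named Fed 1 to P3 3. Values are log2 intensities, and a difference of 1 is a 2-fold change.

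Calpains are proteases that calcium switches on. They cut chosen proteins at a few sites rather than degrading them, and they are known for releasing proteins from the sarcomere so that other systems can break these down. Capn1 and Capn2 code for the large subunits of the ubiquitous calpains, Capns1 for the small subunit that both need, and Cast for calpastatin, their specific inhibitor. Capn3 codes for a calpain found mainly in skeletal muscle, where it binds titin. In the mitochondrial path of cell death, Bax opens the outer membrane, Bcl2 and Bcl2l1 (Bcl-xL) hold it closed, and caspase-9 (Casp9) is activated by the apoptosome once cytochrome c has been released.

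The genes of the calpain system moved in opposite directions. In P3 versus fed rats, Capn3 and Capn1 fell to 0.268 and 0.485 of the fed level, whereas Capn2 rose 2.28-fold, Cast 1.78-fold and Capns1 1.34-fold. Bcl2l1 rose 7.35-fold, with no call for Bcl2, Casp9 or the main probe set of Bax. Group means were compared with limma over all probe sets, and a call is an adjusted p under 0.05 (Benjamini-Hochberg). In P3 versus Fed, 6 of the 9 genes were called, where 29.2% of all probe sets and 35.3% of all genes were called. The 6 were 4 higher and 2 lower, beside 15.8% of probe sets called higher and 13.4% called lower. For P2 rats versus fed rats it was 3 of 9, against 9.28% of probe sets and 12.6% of genes, with 2 higher and 1 lower, beside 5.13% and 4.15%. In P3 versus P2 it was 5 of 9, against 16.0% and 21.8%, with 3 higher and 2 lower, beside 8.50% and 7.52%. Groups that did not overlap were found for 6 of 9 genes between P3 and Fed (42.4% of all probe sets), for 5 between P2 and Fed (24.2%) and for 6 between P3 and P2 (27.4%). Over the 9 genes the median log2 fold change versus Fed was 0.04 in P3 rats and -0.03 in P2 rats, beside 0.00 and 0.01 over all probe sets. A muscle extract holds several cell types, so fewer cells of a type and less RNA per cell cannot be told apart.

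**Figure D1:**
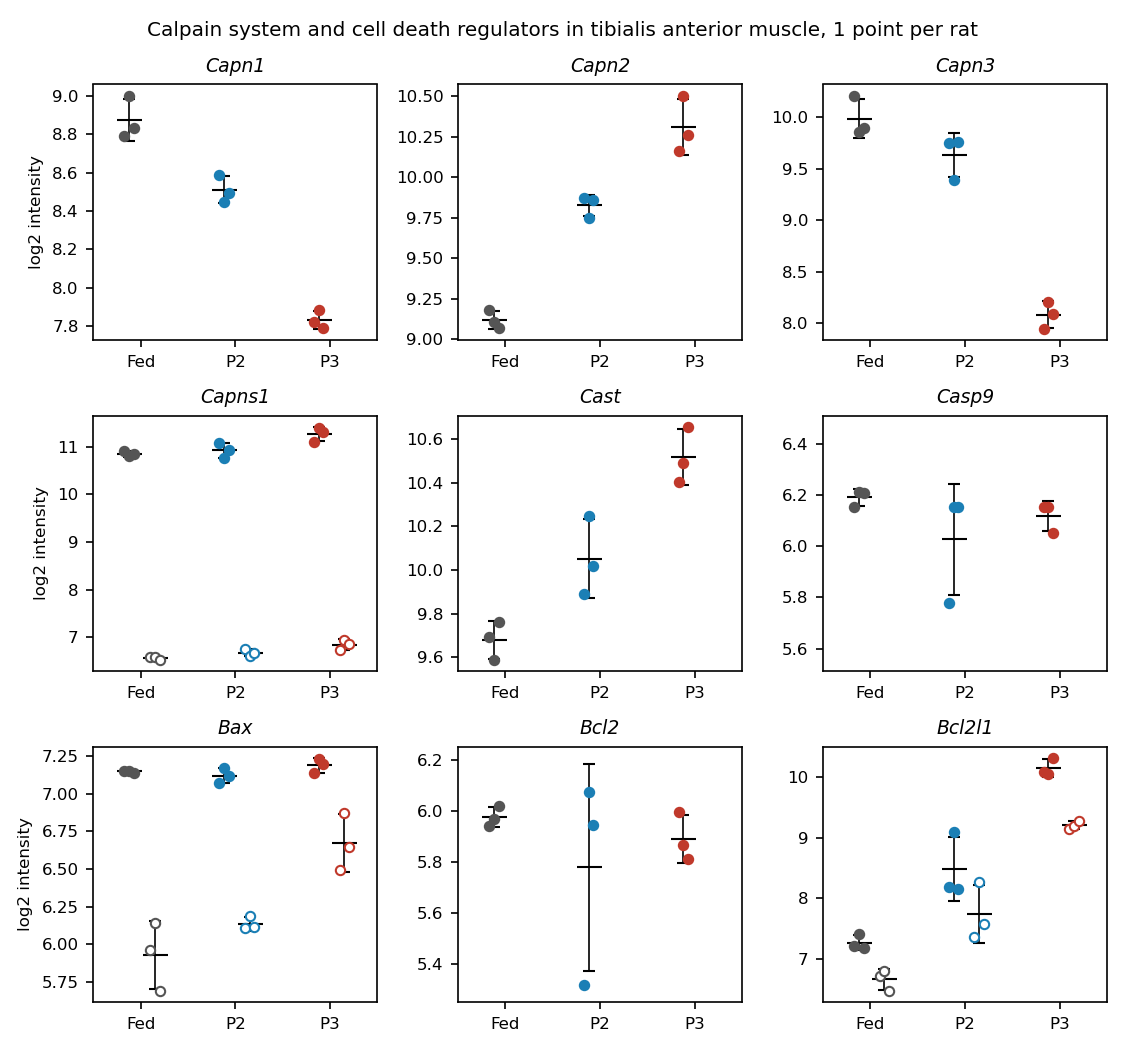
Log2 intensity (y axis) of the 9 genes in Fed, P2 and P3 rats (x axis), with 1 point per rat and bars for the mean and SD of 3 rats. Filled points are the probe set that stands for the gene and open points its other probe set. Capn1 and Capn3 are lowest in P3, Capn2, Cast and Bcl2l1 are highest in P3, and the axes differ between panels.

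Capn3 had the largest decrease of the 9 genes in P3. Its log2 intensities were 10.20, 9.85 and 9.89 in fed rats, 9.75, 9.39 and 9.75 in P2 rats and 7.95, 8.21 and 8.09 in P3 rats. The P3 rats were all lower than any other rat, and no P2 rat reached a fed rat. The log2 fold change was -1.90 ± 0.13 (SE) in P3 versus Fed (adjusted p = 9.54e-06) and -1.55 ± 0.13 in P3 versus P2 (adjusted p = 9.25e-05). The P2 versus Fed value was -0.35 ± 0.13 and did not pass the test (adjusted p = 0.16). Its 95% interval was -0.65 to -0.05 on the log2 scale.

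Capn1, the calpain that needs the lower calcium concentration, was lower in both phases. Log2 intensities of 8.79, 9.00 and 8.83 were read in fed rats, 8.59, 8.45 and 8.49 in P2 rats and 7.82, 7.88 and 7.79 in P3 rats. The 3 groups did not overlap. Capn1 fell by 0.36 ± 0.08 in P2 (adjusted p = 0.021) and by 1.04 ± 0.08 in P3 versus Fed (adjusted p = 1.31e-05). Set against P2 rats, the difference of P3 rats was -0.68 ± 0.08 (adjusted p = 0.000417). The P2 call was lost without Fed 2 (adjusted p = 0.0689), without P2 2 (adjusted p = 0.0678) or without P2 3 (adjusted p = 0.0714).

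Capn2, the calpain that needs more calcium, rose where Capn1 fell. The log2 intensities of Capn2 were 9.18, 9.11 and 9.07 in fed rats, 9.87, 9.75 and 9.86 in P2 rats and 10.16, 10.50 and 10.26 in P3 rats. As for Capn1, the groups did not overlap. Capn2 rose by 1.19 ± 0.09 in P3 versus Fed (adjusted p = 1.73e-05) and already by 0.71 ± 0.09 in P2 (adjusted p = 0.00226), and Capn2 was higher in P3 than in P2 by 0.48 ± 0.09 (adjusted p = 0.00719). In P2 the levels were thus 1.63-fold those of fed rats.

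Capns1, the shared small subunit, had its change in P3. Log2 intensities of 10.92, 10.80 and 10.84 were read in fed rats, 11.09, 10.77 and 10.93 in P2 rats and 11.11, 11.39 and 11.31 in P3 rats. P2 rats overlapped fed rats, and P3 rats lay above both. Capns1 rose by 0.42 ± 0.10 in P3 versus Fed (adjusted p = 0.0137), a call that was lost without Fed 2 (adjusted p = 0.0518) or P3 2 (adjusted p = 0.0512). The P3 versus P2 value of 0.34 ± 0.10 did not pass the test (adjusted p = 0.0566) but did without P2 1 (adjusted p = 0.0275) or P3 1 (adjusted p = 0.0337). A dimmer probe set of Capns1 gave 0.28 ± 0.08 in P3 versus Fed (adjusted p = 0.0231) and 0.12 ± 0.08 in P2 versus Fed (adjusted p = 0.443).

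Cast, the inhibitor, rose together with Capn2 and Capns1 in P3. The log2 values were 9.69, 9.59 and 9.76 in fed rats, 9.89, 10.25 and 10.02 in P2 rats and 10.40, 10.49 and 10.65 in P3 rats. The groups did not overlap, in the order Fed, P2, P3. The P3 versus Fed log2 fold change was 0.83 ± 0.11 (adjusted p = 0.000356). In P2 versus Fed it was 0.37 ± 0.11 and did not pass the test (adjusted p = 0.0687), with a call without P2 1 (adjusted p = 0.0339). Cast was higher in P3 than in P2 by 0.46 ± 0.11 (adjusted p = 0.0179). This call was lost without P2 1 (adjusted p = 0.0506), P2 3 (adjusted p = 0.0608) or P3 3 (adjusted p = 0.0697), after another quantile normalization (adjusted p = 0.0603) and in a fit of only P3 and P2 (adjusted p = 0.0520).

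Whether Capn2 and its inhibitor changed equally was asked of the difference of Capn2 and Cast within each array, relative to its mean in fed rats. It was 0.05, 0.08 and -0.13 in fed rats, 0.54, 0.06 and 0.40 in P2 rats and 0.32, 0.57 and 0.17 in P3 rats. The 3 P3 rats lay above the fed rats, and P2 2 lay among them. The P3 mean was higher than the Fed mean by 0.36 on the log2 scale (two-sided exact permutation test, p = 0.1, the smallest p that 3 against 3 rats allow). The P2 mean was higher by 0.34 (exact permutation test, p = 0.2). P3 and P2 differed by 0.02 (exact permutation test, p = 0.9). Capn1, which Cast also inhibits, went the other way, with a log2 fold change of -1.04 in P3 versus Fed against 0.83 for Cast. The difference of Capn1 and Cast within an array was not tested.

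**Figure D2:**
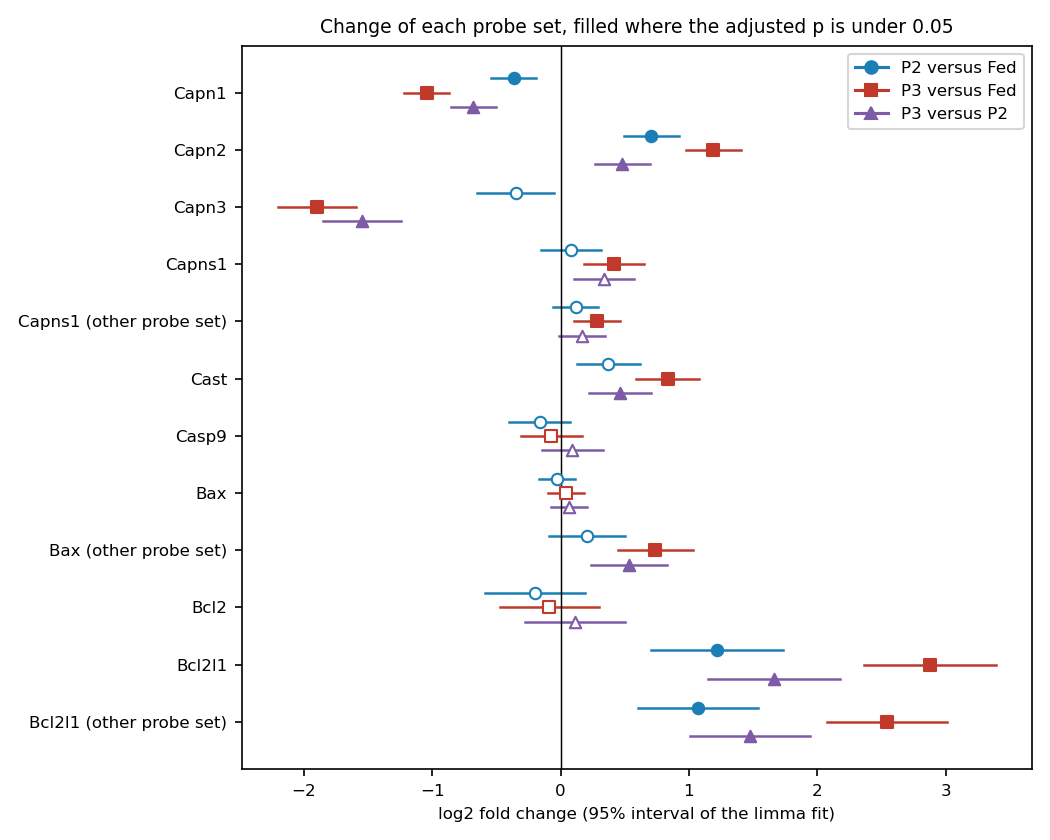
Log2 fold change (x axis) of the 12 probe sets of the 9 genes (y axis) in the 3 comparisons of Fed, P2 and P3 rats, with 3 rats per group. Lines are 95% intervals of the limma fit, and points are filled where the adjusted p is under 0.05. Bcl2l1 lies at 2.88 and Capn3 at -1.90 in P3 versus Fed.

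Bcl2l1, which keeps the mitochondrial outer membrane closed, had the largest increase of the 9 genes. Its log2 intensities were 7.22, 7.41 and 7.18 in fed rats, 8.19, 9.10 and 8.16 in P2 rats and 10.08, 10.05 and 10.32 in P3 rats. The groups did not overlap, and P2 2 stood above the other P2 rats. Bcl2l1 rose by 2.88 ± 0.23 in P3 versus Fed (adjusted p = 1.77e-05) and already by 1.22 ± 0.23 in P2 (adjusted p = 0.0114). P3 was higher than P2 by 1.66 ± 0.23 (adjusted p = 0.0011). The other probe set of Bcl2l1 moved alike, by 1.07 ± 0.21 in P2 (adjusted p = 0.0135) and 2.54 ± 0.21 in P3 versus Fed (adjusted p = 2.07e-05). Increases of at least 2-fold with a call were found for 4.83% of all probe sets in P3 versus Fed.

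Bcl2 itself, the founding member of that family, had no call. Its log2 intensities were 5.94, 5.97 and 6.02 in fed rats, 5.32, 6.08 and 5.95 in P2 rats and 5.99, 5.87 and 5.81 in P3 rats. All groups overlapped, and P2 1 was the lowest of the 9 rats. The log2 fold change was -0.20 ± 0.17 in P2 (adjusted p = 0.577) and -0.09 ± 0.17 in P3 versus Fed (adjusted p = 0.764). The 95% interval in P3 was -0.47 to 0.30, so a change of that size cannot be told from none with these arrays. Without P2 1 the P2 versus Fed value was 0.03.

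Bax, the pore former, gave different answers with its 2 probe sets. The brighter one had log2 intensities of 7.15, 7.15 and 7.13 in fed rats, 7.07, 7.17 and 7.12 in P2 rats and 7.14, 7.23 and 7.20 in P3 rats, and the groups overlapped. Its P3 versus Fed log2 fold change was 0.04 ± 0.06 (adjusted p = 0.687), with a 95% interval of -0.10 to 0.18, and its P2 versus Fed value was -0.03 ± 0.06 (adjusted p = 0.853). The dimmer one had 5.96, 6.14 and 5.69 in fed rats, 6.11, 6.19 and 6.11 in P2 rats and 6.49, 6.87 and 6.65 in P3 rats. There the P3 rats lay above all others, with a log2 fold change of 0.74 ± 0.13 versus Fed (adjusted p = 0.00216) and 0.53 ± 0.13 versus P2 (adjusted p = 0.0214). Its P2 versus Fed value was 0.21 ± 0.13 (adjusted p = 0.415). Which sequence each probe set reads is not given in the sources used here. Which of the 2 stands better for Bax was not tested.

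The difference of Bax and Bcl2 within an array was taken in the same way, with the brighter Bax probe set. Relative to its fed mean it was 0.58, -0.07 and -0.00017 in P2 rats and -0.03, 0.19 and 0.22 in P3 rats, against 0.04, 0.01 and -0.06 in fed rats. P2 1 stood far above the other P2 rats, and the groups overlapped. The P3 mean was higher than the Fed mean by 0.13 (exact permutation test, p = 0.3). The P2 mean was higher by 0.17 (exact permutation test, p = 0.9), and without P2 1 the difference was -0.04. P3 and P2 differed by -0.04 (exact permutation test, p = 0.9). With the dimmer Bax probe set, which was added after the data were seen, the P3 versus Fed difference was 0.82 (exact permutation test, p = 0.1). Bcl2l1, which also holds the membrane closed, rose by 2.88 in P3 versus Fed, more than either Bax probe set (0.04 and 0.74). The difference of Bax and Bcl2l1 within an array was not tested.

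**Figure D3:**
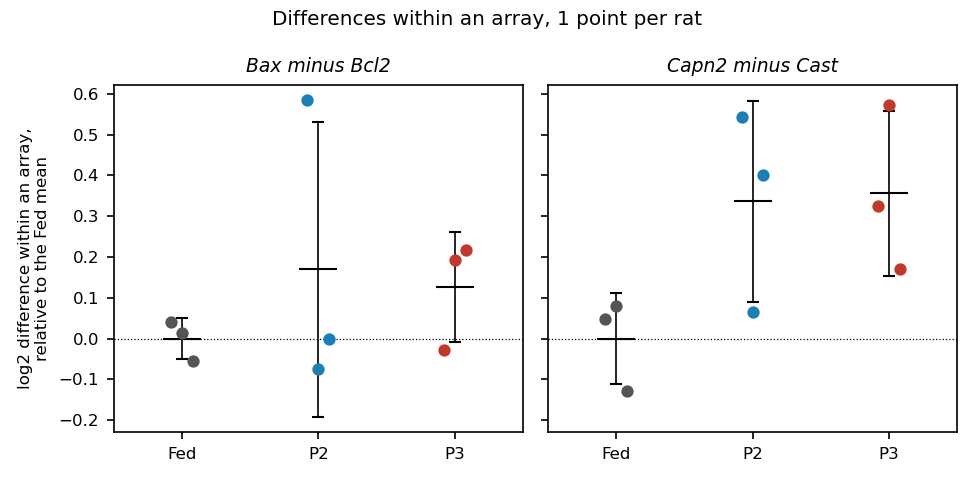
Differences of log2 intensity within an array relative to the Fed mean (y axis) for Bax minus Bcl2 and Capn2 minus Cast, in Fed, P2 and P3 rats (x axis). There is 1 point per rat, with bars for the mean and SD of 3 rats. For Capn2 minus Cast the P3 rats lie between 0.17 and 0.57, all above the fed rats.

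Casp9, the initiator caspase of the mitochondrial path, had no call in any comparison. The log2 values were 6.15, 6.21 and 6.21 in fed rats, 5.78, 6.15 and 6.15 in P2 rats and 6.15, 6.15 and 6.05 in P3 rats. Its groups overlapped, and P2 1 was again the lowest rat. On 5 of the 9 arrays the deposited value was exactly the same, as happened on at least 2 arrays for 45.4% of all probe sets. The log2 fold change was -0.16 ± 0.10 in P2 (adjusted p = 0.424) and -0.07 ± 0.10 in P3 versus Fed (adjusted p = 0.672). The 95% interval in P3 was -0.31 to 0.16.

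For 7 of the 9 genes (Capn2, Capn3, Capns1, Cast, Casp9, Bcl2 and Bcl2l1) RefSeq gives a promoter window of 250 bases before to 50 after the annotated start, on build GRCr8. The windows of Capn3 and Bcl2l1 are shown as those of the gene with the largest decrease and the gene with the largest increase, and that of Capns1 because it holds a searched motif. Each is written 5′ to 3′ on the strand of the gene, and capitals mark GGGCGG, the box that Sp1 binds, or its reverse complement. Capn3 lies at chr3:127861340-127861639 on the plus strand, Bcl2l1 at chr3:161764726-161765025 on the minus strand and Capns1 at chr1:94582172-94582471 on the minus strand.
Capn3: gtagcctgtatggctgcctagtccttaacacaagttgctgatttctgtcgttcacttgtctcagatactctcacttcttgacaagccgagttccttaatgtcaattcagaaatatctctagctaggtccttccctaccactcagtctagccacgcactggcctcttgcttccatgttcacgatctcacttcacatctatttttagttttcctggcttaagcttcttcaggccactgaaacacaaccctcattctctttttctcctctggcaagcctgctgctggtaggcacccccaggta
Bcl2l1: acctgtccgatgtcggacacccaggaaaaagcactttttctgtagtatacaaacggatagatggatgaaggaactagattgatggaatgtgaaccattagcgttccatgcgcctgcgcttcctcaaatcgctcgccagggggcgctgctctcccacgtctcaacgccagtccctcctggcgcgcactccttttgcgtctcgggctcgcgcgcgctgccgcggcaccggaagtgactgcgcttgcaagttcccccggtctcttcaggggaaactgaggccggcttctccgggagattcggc
Capns1: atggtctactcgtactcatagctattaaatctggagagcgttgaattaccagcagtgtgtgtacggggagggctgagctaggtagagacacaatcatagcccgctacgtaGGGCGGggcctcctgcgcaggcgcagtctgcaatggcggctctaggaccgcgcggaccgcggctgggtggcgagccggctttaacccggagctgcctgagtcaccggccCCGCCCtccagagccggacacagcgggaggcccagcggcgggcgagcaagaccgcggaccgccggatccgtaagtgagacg
On both strands, 4 short motifs were searched: GTAAACA for FOXO factors, AGAACA for the glucocorticoid receptor, GGGCGG for Sp1 and CACGTG, the E-box. GGGCGG was found in Capns1 (2 times) and in Casp9 (3 times), that is in 2 of 7 windows, where 33.1% of all 33469 windows of this length hold it. The FOXO, receptor and E-box letters were in none of the 7, against 3.78%, 20.7% and 6.42% of all windows. These letters are thus not in these windows, which says nothing of binding. The GC content was 47% for Capn3, 59% for Bcl2l1, 64.7% for Capns1, 72% for Casp9 and 32.7% for Bcl2, beside a median of 51.7% over all windows.

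Around the 9 genes, 8 lists of related genes held 80 names, of which 70 were measured. Of these, 26 were called in P3 versus Fed (16 higher, 10 lower) and 12 in P2 versus Fed (6 higher, 6 lower), and 16 in P3 versus P2 (11 higher, 5 lower). These are 37.1%, 17.1% and 22.9% of the 70, near the 35.3%, 12.6% and 21.8% of all genes. The median log2 fold change of the 70 was 0.02 in P3 and 0.01 in P2 versus Fed, beside 0.00 and 0.01 over all probe sets. By list, the share called in P3 versus Fed ran from 9.09% of the other calpains to 83.3% of the p53 axis. The median ran from -0.53 for the genes of the apoptosome and mitochondrial release to 0.79 for the p53 axis. Without Fed 2, the P2 count was 8.

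Among the 15 measured relatives of Bcl2, 5 rose and 1 fell in P3 versus Fed, and 3 rose in P2. The 6 are 40.0% of the 15, close to the 35.3% of all genes, and the median of the list was 0.08. Bid, which carries the death receptor signal to mitochondria, rose by 2.18 ± 0.15 in P3 (adjusted p = 9.67e-06), with a P2 value of 0.39 ± 0.15 (adjusted p = 0.174). Mcl1, an inhibitor of cell death like Bcl2l1, rose by 0.77 ± 0.10 at P2 (adjusted p = 0.00201) and by 1.51 ± 0.10 at P3 (adjusted p = 6.53e-06). Bnip3 and Bnip3l, mitochondrial receptors of mitophagy, rose by 1.66 ± 0.08 and 0.78 ± 0.07 in P3, and by 0.58 ± 0.08 and 0.42 ± 0.07 in P2. Bak1, which forms pores as Bax does, had a P3 value of -0.15 (adjusted p = 0.362), and Bbc3 (Puma) one of -0.09 (adjusted p = 0.406). Hrk (0.40, adjusted p = 0.0308) and Bok (-0.31, adjusted p = 0.0236) were called in P3, and the count of 6 became 4 without Fed 2, where both calls were lost (adjusted p = 0.111 and 0.0772). Both were also lost without Fed 3 or P3 1, Hrk without P3 3 and Bok without P3 2.

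In the list of the apoptosome and mitochondrial release, 5 of 10 measured genes fell and 1 rose in P3 versus Fed. Of all genes, 35.3% were called. Dffa, the inhibitor and chaperone of the nuclease that cuts DNA in dying cells, fell by 1.14 ± 0.07 at P2 (adjusted p = 7.35e-05) and by 1.88 ± 0.07 at P3 (adjusted p = 3.33e-07). Endog, a mitochondrial nuclease, fell by 0.61 ± 0.10 and 1.38 ± 0.10, and Cycs, cytochrome c, by 0.37 ± 0.08 and 0.93 ± 0.08. Aifm1, a flavoprotein of the mitochondrial intermembrane space, was at -0.65 ± 0.14 in P2 and -0.68 ± 0.14 in P3, and Parp1, a DNA repair enzyme that caspases cut, fell by 0.81 ± 0.10 in P3. Diablo, which blocks the inhibitors of apoptosis, rose by 0.78 ± 0.10 in P3 (adjusted p = 0.000289), and Apaf1, the scaffold that activates caspase-9, had a value of -0.14 (adjusted p = 0.583). In P2 versus Fed 4 of the 10 were lower, where 12.6% of all genes were called. This count became 2 without Fed 2, where Aifm1 (adjusted p = 0.0788) and Cycs (adjusted p = 0.0502) lost their calls. Aifm1 also lost it without Fed 3 or P2 3, and Cycs without Fed 1, Fed 3 or P2 3.

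Of the other caspases, 6 of 9 were measured, and Casp6, an executioner, was called in P3 (0.46 ± 0.13, adjusted p = 0.0258) but not without Fed 1, Fed 3, P3 1 or P3 3 (adjusted p up to 0.0887). Casp1, Casp2, Casp4, Casp8 and Casp12 had P3 values between 0.02 and 0.13, none of them called, and no caspase was called in P2 versus Fed. Of 5 measured inhibitors of apoptosis, Birc2 rose by 0.83 ± 0.13 (adjusted p = 0.00125) and Birc3 by 0.55 ± 0.15 (adjusted p = 0.0218) in P3. Xiap, the direct caspase inhibitor, fell by 0.42 ± 0.09 (adjusted p = 0.00709). The call of Birc3 was lost without Fed 2, Fed 3, P3 1 or P3 2 (adjusted p up to 0.0812). Of 8 genes of the death receptor pathway, Ripk1, a kinase of the TNF receptor complex, rose by 0.91 ± 0.15 (adjusted p = 0.00156) and Tnfrsf1a, the main TNF receptor, by 0.65 ± 0.11 (adjusted p = 0.00142) in P3. Tnfrsf1a also rose in P2, by 0.50 ± 0.11 (adjusted p = 0.0191). This call was lost without Fed 2 (adjusted p = 0.0735) or P2 2 (adjusted p = 0.0629). Of all genes, 35.3% were called when P3 was set against Fed and 12.6% when P2 was. The P3 calls of the other caspases (1 of 6) and of the death receptor pathway (2 of 8) lay below the share of all genes. Those of the inhibitors of apoptosis (3 of 5) lay above it.

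On the p53 axis, 5 of 6 measured genes were called in P3 versus Fed, 4 higher and 1 lower, where 35.3% of all genes were called. Tp53inp1, a p53-induced stress protein, rose by 3.53 ± 0.25 (adjusted p = 9.97e-06) and Cdkn1a, the cell cycle inhibitor p21, by 3.36 ± 0.31 (adjusted p = 4.69e-05). In P2 Cdkn1a rose by 1.78 ± 0.31 (adjusted p = 0.00886), and Tp53inp1 by 0.98 ± 0.25 (adjusted p = 0.0435), a call lost without any of Fed 1, Fed 2, Fed 3, P2 2, P2 3, P3 1 or P3 3, with an adjusted p up to 0.134. Mdm2 and Mdm4, which restrain p53, rose by 0.80 ± 0.07 and 0.78 ± 0.15 in P3. Ei24, first found as a gene that p53 induces, fell by 0.82 ± 0.10 (adjusted p = 0.000191).

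Among 11 other calpain genes, Capn6 fell by 1.15 ± 0.17 in P2 (adjusted p = 0.00353) and by 1.62 ± 0.17 in P3 versus Fed (adjusted p = 8.86e-05). Capn6 codes for a calpain without a complete catalytic site. The P3 values of the other 10 lay between -0.26 and 0.12, and none was called. Of 9 measured substrates or partners of calpains in muscle, Tln1, talin, rose by 0.74 ± 0.17 (adjusted p = 0.00888) and Dysf, dysferlin of membrane repair, fell by 0.51 ± 0.10 (adjusted p = 0.00356) in P3. Vcl, vinculin of the cell's anchoring sites, was higher in P3 than in P2 by 0.79 ± 0.19 (adjusted p = 0.0186), a call that was lost without P3 2 (adjusted p = 0.0514) or P3 3 (adjusted p = 0.0722). Ttn, the titin that Capn3 binds, had a P3 value of -0.11 (adjusted p = 0.231), and Des, desmin, one of -0.09 (adjusted p = 0.604). Calls in P3 versus Fed were 9.09% of the other calpains and 22.2% of the substrates or partners, beside 35.3% of all genes.

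**Figure D4:**
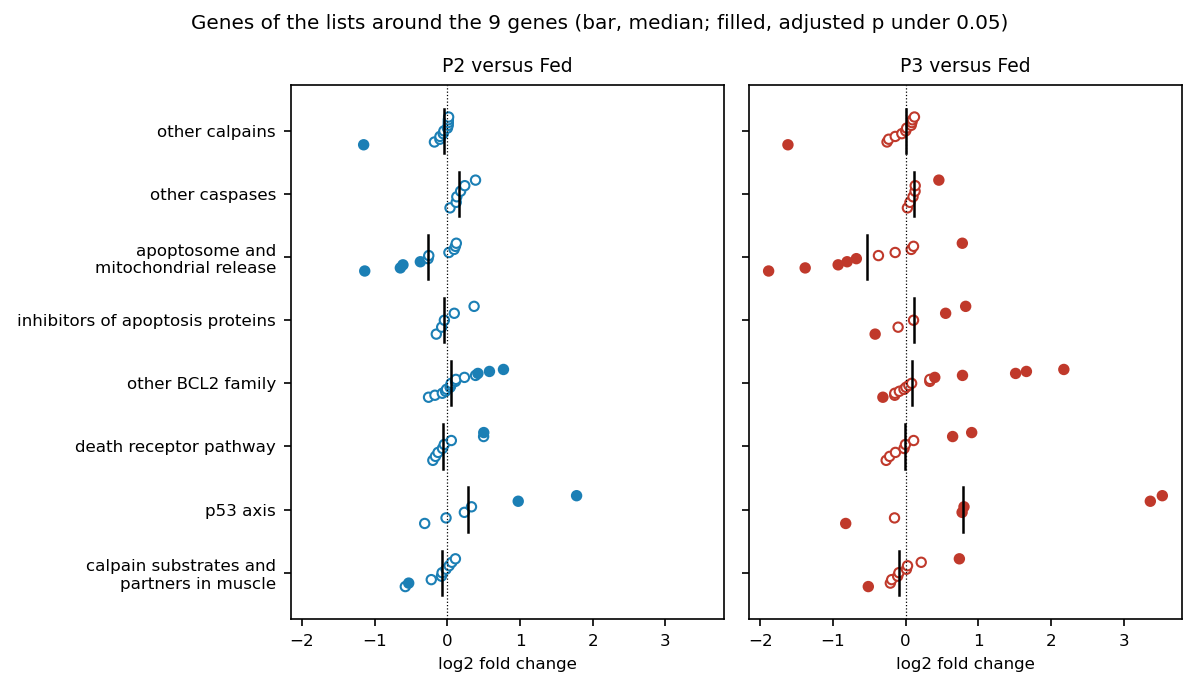
Log2 fold change (x axis) of the measured genes of 8 lists around the 9 genes (y axis), in P2 versus Fed (left panel) or for P3 set against Fed (right panel). Each point is a gene, filled where the adjusted p is under 0.05, and bars are the medians of the lists. Cdkn1a and Tp53inp1 of the p53 axis lie at 3.36 and 3.53 in P3, and Dffa lies at -1.88.

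For the 4 members with a call and a change of at least 2-fold in P3, the most similar profiles were sought among 10543 genes with a mean log2 intensity of at least 5. The measure was the root mean square difference over the 9 arrays of profiles centred on their own mean. Bcl2l1 was nearest to Sesn1 (0.19), Gadd45b (0.22) and Tcp11l2 (0.25). Capn3 was nearest to Sobp and Rragd (0.14 and 0.15) and to Cacnb1 (0.15), the muscle calcium channel subunit. The nearest profiles to Capn1 were Nme2 (0.04), Slc25a3 (0.07) and Nap1l4 (0.07), and to Capn2 Trim27, Acot9 and Smn1 (each 0.08). The neighbours of Bcl2l1 had P3 versus Fed log2 fold changes between 2.79 and 3.08. That these lie near the value of Bcl2l1 follows from how the neighbours were picked.

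Over the whole table, array medians lay between 5.80 and 5.90. All 10 myofiber markers were measured. Their mean log2 intensity was 12.86 to 12.95 in P3 and 13.17 to 13.21 in P2 rats, against 13.33 to 13.36 in fed rats. In P3 versus Fed 3 of the 10 were called lower and 7 were not called. The median log2 fold change of the 10 was -0.15, with a range from -1.87 to 0.007. Markers of fibro-adipogenic cells were called lower in 5 of 7 cases in P3, with a mean log2 intensity of 7.75 to 8.99 in P3 rats against 10.33 to 10.55 in fed rats. Adipocyte markers were called higher in 4 of 6 cases in P2, with means of 6.68 to 7.19 in P2 rats against 5.995 to 6.11 in fed rats. In P3 versus P2, 4 of 6 adipocyte markers were lower, with means of 5.86 to 6.07 in P3 rats. Smooth muscle and pericyte markers were lower in 3 of 5 cases in P3 versus Fed, with a median log2 fold change of -0.69 and means of 8.59 to 9.14 in P3 rats against 9.23 to 9.48 in fed rats. Of the satellite cell markers 1 of 4 was called lower in P3 versus Fed and 2 of 4 in P3 versus P2. Their P3 versus Fed values ran from -0.54 to -0.22. Their means were 5.70 to 5.86 in P3 rats against 6.08 to 6.22 in fed rats. Of the endothelial markers 1 of 6 was called higher in P3 versus Fed. Among macrophage markers 1 of 9 was higher in P3, and no neutrophil, lymphocyte or Schwann cell and neuron marker was called in any comparison. Beside these marker counts, 35.3% of all genes were called when P3 was set against Fed. The myofiber, satellite cell, endothelial and macrophage shares in that comparison lay below this, and the fibro-adipogenic and smooth muscle shares above it. For P2 set against Fed the share of all genes was 12.6%, and for P3 set against P2 it was 21.8%. The part of the marker changes in the values of the 9 genes was not tested. P2 1 had the lowest array weight, 0.381, and without it 4 members were called in P2 versus Fed, 6 when P3 was set against Fed and 5 when P3 was set against P2. Over all 29215 probe sets, 3364, 9267 and 4381 were then called, beside 2711, 8538 and 4680 with all arrays.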

How the data were processed

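RNA of TIB from 3 rats per group was hybridised to Affymetrix Rat Gene 1.0 ST arrays. The deposited log2 intensities come from the authors' use of GCOS and Affymetrix Expression Console 1.1, by sketch quantile normalization and median polish (RMA), and they were used as deposited. Of 29215 probe sets, 15310 have 1 symbol, 323 several and 13582 none. Of the 15310, 15279 matched a current RefSeq rat gene. Group means were fitted to the 9 arrays with limma 3.58.1 in R 4.3.3 (eBayes defaults), and p-values were adjusted over all probe sets. The ± sign gives standard errors, and the number of arrays limits the precision. Permutation tests used scipy 1.17.1, and figures matplotlib 3.10.9. The script was tested on simulated data. Nothing in the labels says that replicate numbers mark a litter or batch. All 9 members are named. From the lists, up to 4 called genes with the largest change per list and comparison are named. Hrk, Bok, Mdm4 and the examples without a call were named after their values were seen. The 3 most similar profiles are named for members with a call and at least 2-fold change in P3 versus Fed. Members and lists were chosen with earlier results of these data known. Alternatives were another normalization, filters, moderation, array weights, subsets of arrays, thresholds, the analysis of variance and Tukey test of the study's methods, and each array left out.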

Additional observations from a re-analysis of the deposited data

Results flagged for a closer look

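For 5 of the 9 genes, the change versus Fed differed between P3 and P2 by limma's direct comparison of P3 with P2 over 3 rats per group. This comparison called 21.8% of all genes and 16.0% of all probe sets. The difference on the log2 scale was -0.68 for Capn1, 0.48 for Capn2, -1.55 for Capn3, 0.46 for Cast and 1.66 for Bcl2l1. Each went further in P3 in the direction of its P2 value. The adjusted p was 0.000417, 0.00719, 9.25e-05, 0.0179 and 0.0011 in the same order. The difference of Cast lost its call without P2 1 (adjusted p = 0.0506), P2 3 (adjusted p = 0.0608) or P3 3 (adjusted p = 0.0697), and also after another quantile normalization (adjusted p = 0.0603) and in a fit of only P3 and P2 (adjusted p = 0.0520).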

How the results depend on the processing

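The number of members called was 6 in P3 versus Fed and stayed between 5 and 7 under every alternative. In P2 versus Fed, 3 members were called, and 1 with an adjusted p under 0.01. The methods' test, with the analysis of variance and Tukey p-values both under 0.001, also called 1. A variant asked for a Benjamini-Hochberg adjusted p under 0.05 in the analysis of variance and left the Tukey p unadjusted, and it called 1. In P3 versus P2, 5 were called, 3 with a change of at least 1.5-fold, 2 with the methods' test and 2 with its variant. With 1 array left out the counts ranged from 2 to 4 in P2 versus Fed, from 5 to 6 in P3 versus Fed and from 4 to 6 in P3 versus P2. With the replicate number as a block, the counts were 2, 6 and 5. Deviations from the group mean correlated from -0.24 to 0.12 between samples with the same number. Samples with different numbers were not compared, so this cannot show whether the numbers pair the rats. Over all probe sets 2711, 8538 and 4680 were called, and 1983, 7930 and 4035 with the block. They were 1118 and 2816 in P2 versus Fed and P3 versus P2 at an adjusted p under 0.01, and 1437, 5433 and 2750 at 1.5-fold. The methods' test called 660, 2813 and 1419, and its variant 661, 2899 and 1420. In P2 versus Fed 4284 were called with array weights, 1573 without Fed 2, 1711 if Fed 3 was left out and 1627 if P2 3 was. The call of Capn1 in P2 was lost under the block (adjusted p = 0.0556) and in a fit of only the groups compared (adjusted p = 0.0539), and that of Cast in P3 versus P2 in such a fit (adjusted p = 0.0520) and after another quantile normalization (adjusted p = 0.0603). Directions turned only for values without a call: Bax was 0.089 in P2 versus Fed with the mean of its probe sets and -0.0038 in P3 versus Fed after another quantile normalization, and in P3 versus P2 Casp9 was -0.0077 and Bcl2 -0.032 with array weights. With 1 array left out, Capns1 ranged from -0.0019 to 0.16 and Bcl2 from -0.35 to 0.034 in P2 versus Fed, and Casp9 from -0.033 to 0.15 and Bcl2 from -0.12 to 0.26 in P3 versus P2. With the mean of its probe sets, Bax was called in P3 versus Fed (0.39, adjusted p = 0.00861). For Bax minus Bcl2 the P3 versus P2 difference was 0.19 with the mean of probe sets and 0.42 with the other Bax probe set. With 1 array left out, Bax minus Bcl2 ranged from -0.038 to 0.29 in P2 versus Fed, from 0.08 to 0.20 in P3 versus Fed and from -0.16 to 0.16 in P3 versus P2. Capn2 minus Cast ranged from 0.23 to 0.47, from 0.25 to 0.45 and from -0.12 to 0.12. The cause was not tested. Of the single values of members under these alternatives, 544 kept direction and call, 32 lost and 10 gained a call, and 8 turned.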
